A study of Homo sapiens with 12 samples.

Results

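The genes of the ephrin, semaphorin, plexin, slit and netrin guidance systems were examined in 2 human lung adenocarcinoma cell lines. Members were the genes whose only annotated symbol matched the name stems of Eph receptors, ephrins, semaphorins, plexins, neuropilins, slits, robos, netrins, UNC5 receptors or DCC. The rule found 76 of 19775 genes on the array, and 1 probe set stood for each gene, the one with the highest mean log2 signal over the 12 arrays. Of the 76, 70 belonged to 12 guidance families. The other 6 matched by spelling: 4 are antisense RNAs (EPHA1-AS1, EPHA2-AS1, EPHA5-AS1 and UNC5B-AS1), UNC50 is an unrelated protein, and UNC5CL is a relative of the UNC5 receptors. The 4 groups held 3 biological replicates each, 1 array per replicate. They were CL1-5 cells exposed to a direct-current electric field of 300 mV/mm, CL1-5 cells at 0 mV/mm, CL1-0 cells exposed to 300 mV/mm, and CL1-0 cells at 0 mV/mm. Exposure lasted 2 h in serum-free medium inside a microfluidic chip, so all 4 groups shared the chip, the serum withdrawal and the trypsin harvest. CL1-5 is known as a more invasive subline derived from CL1-0 by selection for invasion, so each line is a single cell population and a difference between them is a difference between these 2 lines.

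Guidance genes were named for steering axons, and epithelial and tumour cells use the same ligands and receptors to attract, repel or detach from each other. Ephrins are bound to the cell surface and activate Eph receptor tyrosine kinases on neighbouring cells. Semaphorins bind plexins, which signal to the cytoskeleton and to cell adhesion, and the secreted class 3 semaphorins mostly need a neuropilin as co-receptor. Slits bind robos and netrins bind DCC and the UNC5 receptors.

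All values are MAS5 signals, a probe set brightness in linear intensity units, given here as log2 with values under 1 set to 1. The median signal of an array lay between 60.7 and 72.4, which is 5.92 to 6.18 on the log2 scale, and values near or under it carried most of the scatter. Replicate 1 of all 4 groups stood apart from replicates 2 and 3. The poly-A control transcript dap, which is added to the RNA before labelling, gave signals of 3.20 to 11.9 on these 4 arrays, against 1448 to 1968 on the other 8. The 18S ribosomal RNA probe sets gave 30.0 to 92.7 on the 4 arrays, against 2983 to 4649 on the other 8. Every group held 1 such array. Counts of passing genes, and the values of some single genes but not all, are given below with and without the 4. The epithelial keratins KRT8 and KRT18 were above the array median on all 12 arrays. Without the field they averaged 11.68 and 14.03 in CL1-5, against 9.53 and 12.69 in CL1-0. EPCAM, an epithelial adhesion protein, was above the array median on 0 of 6 arrays of CL1-5 and on 6 of 6 of CL1-0. KRT19 was above it on 0 of 6 and 2 of 6, and CDH1 on 3 of 6 and 6 of 6. The summed level of these 5 epithelial markers was 14.18 to 14.99 (log2) in CL1-5 under the field and 13.99 to 14.62 without it. In CL1-0 it was 12.06 to 14.58 and 11.53 to 14.17. Among markers of other cell types, the summed level of 5 endothelial markers was 9.84 to 11.29 (log2) in CL1-5 under the field and 9.73 to 11.49 in CL1-5 without it, against 7.17 to 7.55 and 6.84 to 7.33 in the same states of CL1-0. Of these 5, CDH5 and VWF were under the array median on all 12 arrays, PECAM1 was above it on all 12, and TIE1 and ESAM were above it on the 6 CL1-5 arrays alone. The summed level of 6 neuronal markers ran the other way, 8.38 to 8.75 and 8.46 to 9.12 in CL1-5 under the field and without it, against 12.83 to 13.61 and 12.59 to 13.50 in CL1-0. It followed MAP2, which averaged 2.76 and 3.06 in CL1-5, against 13.06 and 12.87 in CL1-0. ELAVL3 and RBFOX3 were above the array median on 0 of 6 CL1-5 arrays, and on 5 and 4 of 6 CL1-0 arrays. SYT1 went the other way, with 6 of 6 and 3 of 6. The part of these genes in the differences below was not tested. In such bulk RNA, fewer cells with a transcript and less of it per cell cannot be told apart.

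Of the 76 members, 49 were above the median of their array on at least 3 arrays and were tested, 24 of them above it on all 12 arrays. The 27 that were not tested lay between 0.63 and 6.74 (log2), with 12 above the median on no array and 15 on 1 or 2. Among these were the Eph receptors EPHA3, EPHA4, EPHA5, EPHA6 and EPHA7 and the netrin receptors DCC, UNC5A, UNC5C and UNC5D. So were the slit receptor ROBO2 and the plexins PLXNA4, PLXNB1 and PLXNB3. EPHA1, NTN3, NTN5, NTNG1, SEMA3B, SEMA3D, SEMA5A, SEMA6A, SEMA6C, SEMA6D and the 4 antisense RNAs made up the rest. By family, counting members only, 3 of 9 EphA receptors, 4 of 4 EphB receptors, 5 of 5 ephrin-A and 3 of 3 ephrin-B ligands, and 2 of 2 neuropilins were tested. No probe set was annotated to the receptor EPHB2, so it is not among the members, and the EphB receptors here are EPHB1, EPHB3, EPHB4 and EPHB6. So were 5 of 7 class 3 semaphorins, 9 of 13 semaphorins of the other classes, 6 of 9 plexins, 3 of 3 slits, 3 of 4 robos, 3 of 6 netrins and 1 of 5 netrin receptors. A gene that passed through one line only had to differ between the lines: 5 tested members were above the median on no array of one line (EFNA2, NTN4, PLXNC1, SEMA3A and SEMA3E), and 8 on fewer than 2.

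**Figure D1:**
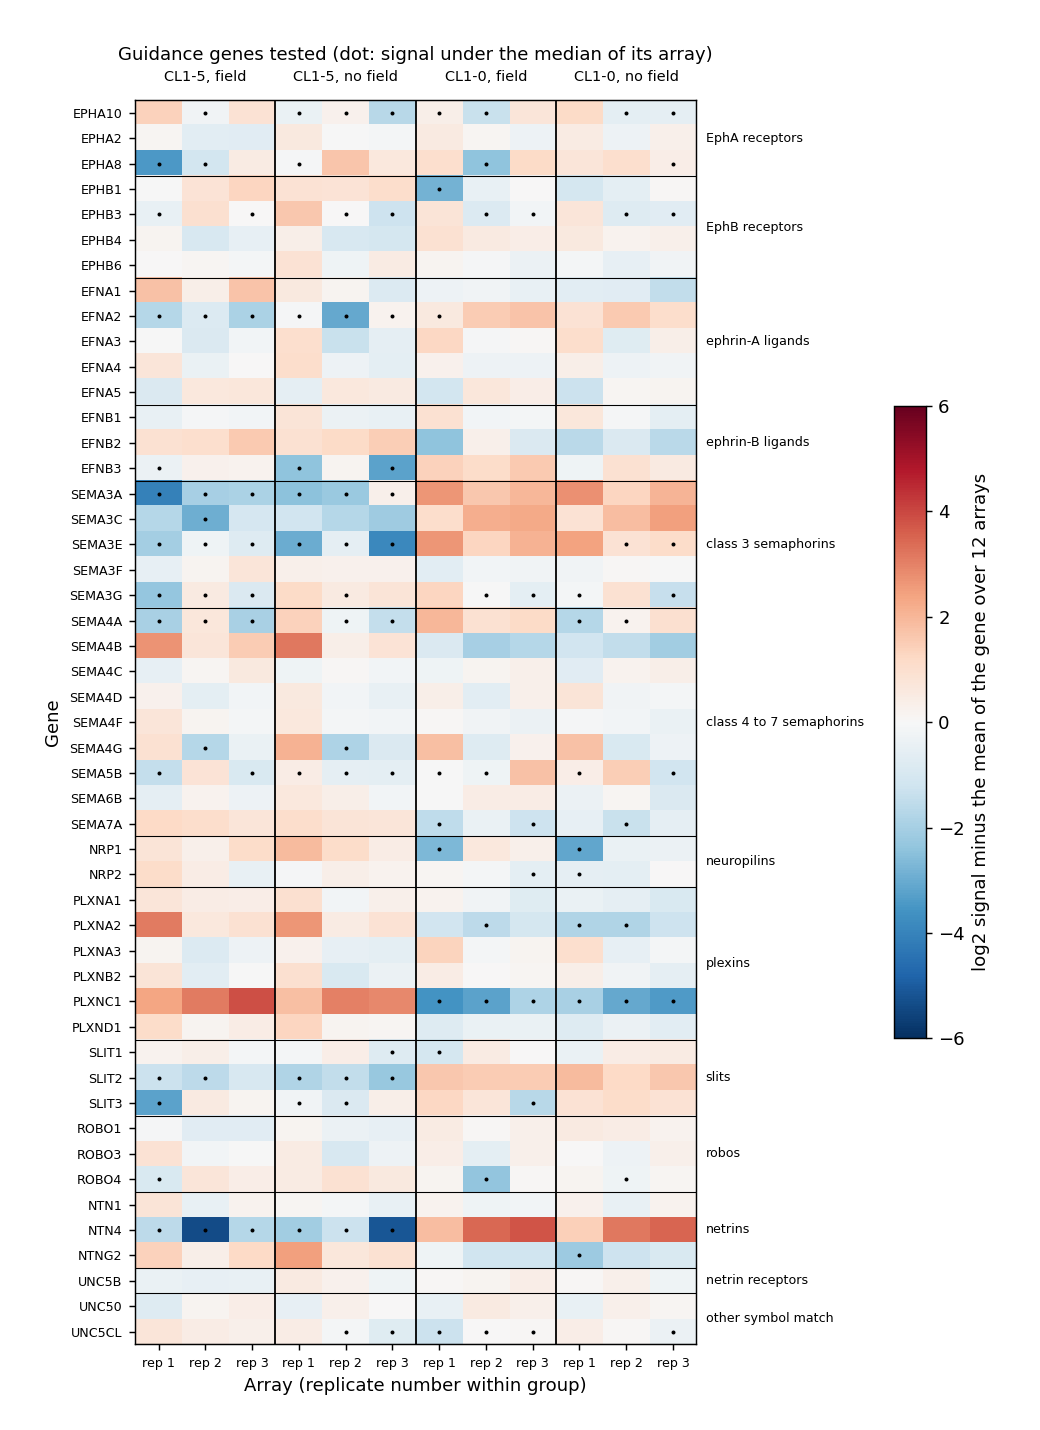
Log2 signal of the 49 tested members (rows, by family) on the 12 arrays (columns, 3 replicates per group), as the difference from the gene's own mean over the 12 arrays. Dots mark signals under the median of their array. PLXNC1 and NTN4 split the CL1-5 arrays from the CL1-0 arrays in opposite directions, and no row splits the field arrays from the arrays without field in both lines.

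The lines were compared first without the field. CL1-5 had higher signals of plexins C1, A2, D1 and A1, of the membrane-bound ligands SEMA4B, SEMA7A and EFNB2, and of NTNG2, and lower signals of the secreted ligands NTN4, SEMA3E, SEMA3A, SLIT2 and SEMA3C. That is 13 of 49 members past an adjusted p of 0.05 (limma, Benjamini-Hochberg over 13838 genes), 8 higher and 5 lower, or 26.5% of the members, against 18.0% of all genes tested (9.04% higher and 8.93% lower). Under the field 14 of 49 passed, 8 higher and 6 lower, or 28.6%, against 19.4% of all genes tested (9.83% higher and 9.62% lower). The same 12 members passed in both states in the same direction, 7 higher and 5 lower, against 14.3% of all genes. PLXNA1 passed only without the field, and EFNA1 and EFNA2 only under it, with no member passing in opposite directions. Whether these 3 differed between the states is the test of the field response given further on, which none of them passed. The 2 comparisons use different arrays but the same fit. The median difference of the 49 members was 0.04 without the field, beside -0.03 for all genes, and -0.01 under it, beside -0.08 for all genes. Groups of 3 arrays did not overlap for 20 members without the field, beside 34.0% of all genes, and for 21 under it, beside 35.8%. At an unadjusted p under 0.05, 19 members passed without the field, beside 29.5% of all genes, and 20 under it, beside 31.3%. Without the field, 25 of the 49 members had a difference above 0.

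With the replicate number as a block, 19 members passed without the field, 11 higher and 8 lower, beside 35.6% of all genes, and 20 under it, 10 higher and 10 lower, beside 38.1% of all genes. With no filter on low values, 12 of all 76 members passed without the field (15.8%), beside 11.3% of all genes, and 15 under it (19.7%), beside 12.3%. With the block and no filter, 22 of all 76 members passed without the field, beside 23.4% of all genes. On the 8 arrays with the poly-A control alone, 16 and 17 members passed, beside 30.9% and 31.9% of all genes. Under the field, the count was 9 without CL1-0 field replicate 2 and 8 without CL1-5 field replicate 3.

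Split by how the protein is held, the tested members fell into 10 secreted ligands and 37 proteins attached to the membrane. This split was made after the values were seen, so it is a description with no test. Of the 10 secreted ligands, 0 were higher and 5 were lower in CL1-5, the same 5 with and without the field. Of the 37 attached to the membrane, 8 were higher and 0 lower without the field, and 8 were higher and 1, EFNA2, lower under it. Of all genes tested, 9.04% were higher and 8.93% lower without the field, and 9.83% were higher and 9.62% lower under it. PLXNC1 passed the filter through CL1-5 alone, so it had to be higher there. EFNA2 and the secreted ligands NTN4, SEMA3A and SEMA3E passed it through CL1-0 alone, so they had to be lower in CL1-5. By role, and on the probe sets kept, 4 of 19 tested receptors were higher and 0 lower without the field, all 4 of them plexins. Under the field 3 were higher and 0 lower. The shares of all genes are those just given.

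**Figure D2:**
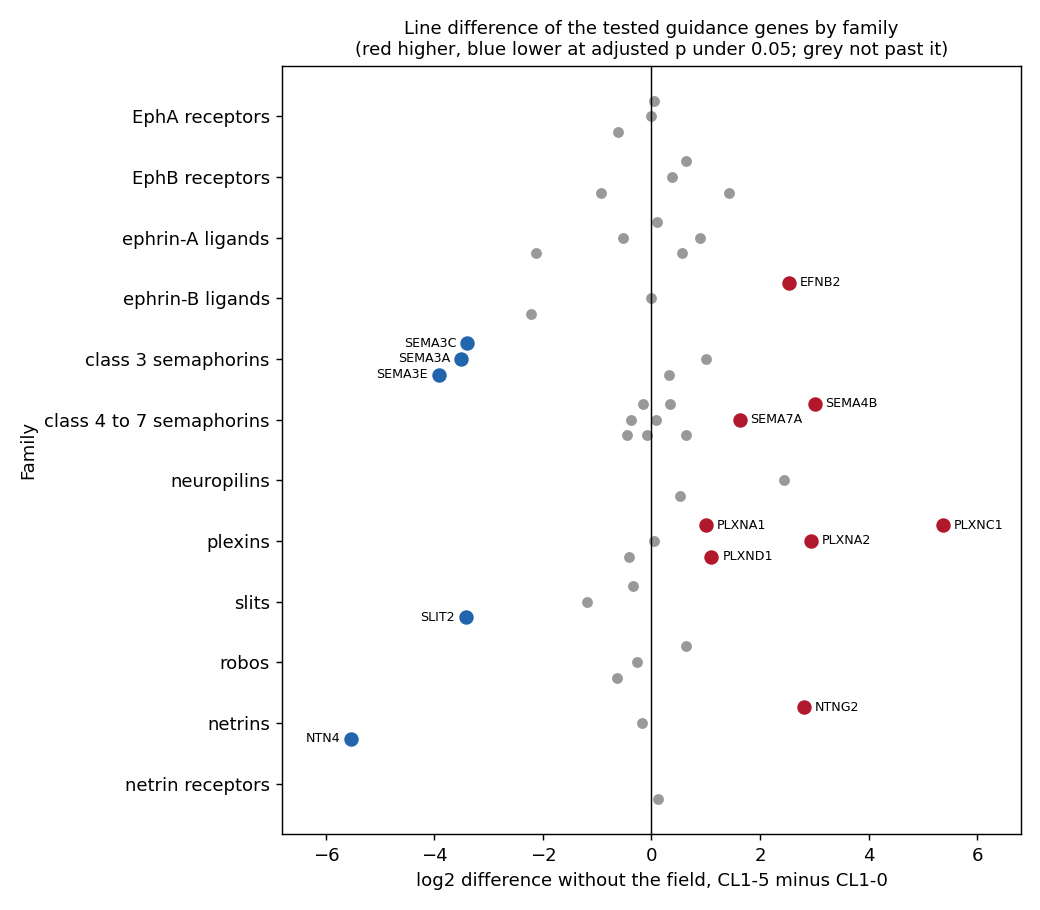
Log2 difference between CL1-5 and CL1-0 without the field for the 47 tested members of the 12 families (1 point per gene; points are spread vertically for legibility). Red and blue points passed an adjusted p of 0.05. All 4 red receptor points are plexins, and all 5 blue points are secreted ligands.

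Plexin C1, the receptor of the membrane-anchored semaphorin 7A, differed most among the members that were higher. PLXNC1 had log2 signals of 9.62, 10.36 and 11.13 in CL1-5 under the field and 9.06, 10.29 and 10.15 in CL1-5 without it, against 3.69, 4.05 and 5.43 in CL1-0 under the field and 5.32, 4.21 and 3.87 in CL1-0 without it. All 6 CL1-5 arrays were far above the array median and all 6 CL1-0 arrays were under it. The difference was 5.98 ± 0.57 under the field (SE, adjusted p = 2.33e-05, limma) and 5.36 ± 0.57 without it (adjusted p = 5.02e-05). A signal under the array median is only a bound on the level, so low values were raised to that median for a fold. PLXNC1 was then at least 20.1-fold higher in CL1-5 under the field and at least 14.4-fold higher without it. Without the replicate 1 arrays the differences were 6.01 and 6.18. Of its 3 other probe sets, the differences without the field were 5.82, 5.05 and 0.07.

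PLXNA2 is a receptor of class 6 semaphorins and, with a neuropilin, of class 3 semaphorins. Its signals were 10.56, 8.09 and 8.38 in CL1-5 under the field and 10.10, 7.93 and 8.32 in CL1-5 without it, against 6.33, 5.87 and 6.40 and 5.66, 5.66 and 6.21 in the same states of CL1-0. The replicate 1 arrays of CL1-5 were the high ones, but even the lowest CL1-5 array lay above all CL1-0 arrays. PLXNA2 was at least 6.91-fold higher under the field (log2 difference 2.81 ± 0.65, adjusted p = 0.0100, limma) and at least 6.65-fold higher without it (2.94 ± 0.65, adjusted p = 0.00807). Without the replicate 1 arrays the differences were 2.10 (adjusted p = 0.00150) and 2.19 (adjusted p = 0.00119). Its second probe set differed by 2.35 without the field and another, under the array median on all arrays, by -0.16. The mean of all 3 probe sets, the kept one included, gave 1.71.

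PLXND1, which binds SEMA3E without a neuropilin, differed less. Its signals were 10.71, 9.77 and 10.06 in CL1-5 under the field and 10.89, 9.78 and 9.70 without it, against 8.83, 9.22 and 9.19 and 8.84, 9.23 and 8.98 in CL1-0. The lines did not overlap, and the gap between the lowest CL1-5 and the highest CL1-0 array was narrow. It was 2.14-fold higher under the field (log2 difference 1.10 ± 0.34, adjusted p = 0.0385, limma) and 2.15-fold higher without it (1.11 ± 0.34, adjusted p = 0.0400). The call without the field was lost when any of CL1-0 no-field replicates 1 to 3, CL1-5 no-field replicate 1, CL1-0 field replicates 2 or 3 or CL1-5 field replicate 3 was left out (adjusted p = 0.0551 to 0.123). The difference was 0.72 without CL1-5 no-field replicate 1, and 0.63 (0.71 under the field) without all 4 replicate 1 arrays. The call under the field was lost without any of CL1-0 no-field replicates 2 or 3, CL1-0 field replicates 1 to 3 or CL1-5 field replicates 1 or 3 (adjusted p = 0.0514 to 0.126). The mean of its 3 probe sets, 1 of which differed by -0.91, gave 0.96 under the field (adjusted p = 0.0770, limma) and 0.52 without it (adjusted p = 0.368), so both calls were lost. With no trend in the variance both were lost too (adjusted p = 0.0507 and 0.0528), and that without the field was lost with no filter (0.0514) and with only the groups compared (0.0793).

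PLXNA1, the usual signalling partner of neuropilin-1, had signals of 10.17, 9.88 and 9.84 in CL1-5 under the field and 10.38, 9.29 and 9.75 without it, against 9.63, 9.21 and 8.71 and 9.03, 8.88 and 8.50 in CL1-0. It was 1.72-fold higher under the field (adjusted p = 0.109, limma) and 2.00-fold higher without it (adjusted p = 0.0453). With the replicate block it passed in both states (adjusted p = 0.0104 and 0.00255). The call without the field was lost when any of CL1-0 no-field replicates 1 to 3, CL1-5 no-field replicates 1 or 3, CL1-0 field replicate 2 or CL1-5 field replicates 2 or 3 was left out (adjusted p = 0.0585 to 0.157). It was also lost with array median centring (adjusted p = 0.0608), no filter (0.0605), the mean of its probe sets (0.352), no trend in the variance (0.0568) and only the groups compared (0.0869). Its other 2 probe sets differed by 0.25 and 1.09 without the field. PLXNA3, a close relative of the other class A plexins, differed by -0.80 ± 0.48 under the field and passed only with the block (adjusted p = 0.0236). PLXNB2, which mainly binds class 4 semaphorins, differed by 0.04 ± 0.47 without the field (adjusted p = 0.970).

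Among the ligands held at the membrane, SEMA4B and SEMA7A were the semaphorins that passed. SEMA4B, a transmembrane class 4 semaphorin, had signals of 12.76, 10.82 and 11.57 in CL1-5 under the field and 13.22, 10.44 and 10.87 without it, against 9.20, 8.10 and 8.34 and 8.93, 8.59 and 7.99 in CL1-0. Both replicate 1 arrays of CL1-5 were the highest of their groups, and all CL1-5 arrays lay above all CL1-0 arrays. SEMA4B was 9.0-fold higher under the field (log2 difference 3.17 ± 0.67, adjusted p = 0.00592, limma) and 8.05-fold higher without it (3.01 ± 0.67, adjusted p = 0.00828). Without the replicate 1 arrays the differences were 2.97 (adjusted p = 4.1e-05) and 2.37 (adjusted p = 0.000193).

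SEMA7A is anchored by a lipid tail and is the ligand of plexin C1, and it also binds integrins. It had signals of 7.91, 7.79 and 7.47 in CL1-5 under the field and 7.79, 7.49 and 7.47 without it, against 5.24, 6.32 and 5.49 and 6.26, 5.41 and 6.22 in CL1-0, where the values scattered around the array median. Receptor and ligand were both higher in CL1-5, SEMA7A by at least 2.93-fold under the field (log2 difference 2.04 ± 0.38, adjusted p = 0.00266, limma) and at least 2.73-fold without it (1.62 ± 0.38, adjusted p = 0.0107). Its other probe set, above the median on 2 arrays, differed by -0.19 without the field. With the mean of both probe sets neither call held (adjusted p = 0.245 and 0.519, limma). The other tested semaphorins of classes 4 to 6, SEMA4A, SEMA4C, SEMA4D, SEMA4F, SEMA4G, SEMA5B and SEMA6B, did not pass in either state. Their differences were -0.45 to 0.64 without the field and -2.41 (SEMA4A) to 0.44 under it, with SEMA5B at -1.03. SEMA4C, a class 4 semaphorin that binds plexin B2, had 10.65 to 11.71 on the CL1-5 arrays and 10.46 to 11.50 on the CL1-0 arrays, so the lines overlapped throughout.

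EFNB2, the ligand of EphB4 in the vasculature, had signals of 9.63, 9.74 and 10.29 in CL1-5 under the field and 9.62, 9.88 and 10.18 without it, against 6.29, 9.01 and 7.83 and 7.11, 7.84 and 7.12 in CL1-0. The CL1-5 arrays lay close together, while the CL1-0 arrays under the field spread widely. EFNB2 was 4.53-fold higher under the field (log2 difference 2.18 ± 0.53, adjusted p = 0.0132, limma) and 5.80-fold higher without it (2.54 ± 0.53, adjusted p = 0.00587). Without CL1-5 field replicate 3 the call under the field was lost (adjusted p = 0.0540), and on the arrays with the poly-A control the difference was 1.60 (adjusted p = 0.00934). Its second probe set differed by 2.86 without the field. EFNA1, a ligand of EphA2 that is known to be induced by inflammatory cytokines, had signals of 10.19, 8.79 and 10.13 in CL1-5 under the field and 8.99, 8.59 and 7.62 without it, against 8.10, 8.21 and 7.96 and 7.77, 7.76 and 6.97 in CL1-0. It was 3.05-fold higher under the field (log2 difference 1.61 ± 0.43, adjusted p = 0.0213, limma) and differed by 0.90 ± 0.43 without it (adjusted p = 0.193). The call under the field was lost without any of CL1-0 field replicates 1 to 3 or CL1-5 field replicates 1 or 3 (adjusted p = 0.0508 to 0.0842). EFNA2 was lower under the field, but all 6 CL1-5 values, the highest at 5.5, were under the array median, and those of CL1-0, 5.87 to 6.99, were close to it. Its difference under the field was -2.76 ± 0.82 (adjusted p = 0.0334, limma), and the bound was at least 1.5-fold lower. After values under the array median were set to it, the call was lost (adjusted p = 0.119), as it was with the mean of its 3 probe sets (adjusted p = 0.263). Nor did it pass without any of CL1-0 field replicates 2 or 3 or CL1-5 field replicates 1 or 3 (adjusted p = 0.0765 to 0.114). The other ephrins EFNA3, EFNA4 and EFNB1, and the spelling matches UNC50 and UNC5CL, passed in neither state. Their differences were -0.52 to 0.10 without the field and -0.75 (EFNA3) to 0.89 (UNC5CL) under it.

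NTNG2 belongs to the netrin-G group, which is lipid-anchored and does not bind DCC. It had signals of 8.72, 7.68 and 8.49 in CL1-5 under the field and 9.80, 7.98 and 8.24 without it, against 7.07, 6.14 and 6.13 and 5.13, 6.06 and 6.39 in CL1-0, so the lines did not overlap. NTNG2 was 3.61-fold higher under the field (log2 difference 1.85 ± 0.52, adjusted p = 0.0275, limma) and at least 5.74-fold higher without it (2.82 ± 0.52, adjusted p = 0.00278). The difference without the field was 1.89 when the replicate 1 arrays were left out (adjusted p = 0.00279). The call under the field was lost without any of CL1-0 field replicates 2 or 3 or CL1-5 field replicates 1 or 3 (adjusted p = 0.0850 to 0.0937). NTNG2, NTN4, SEMA4B, SEMA3E and EFNA1 each rest on a single probe set.

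**Figure D3:**
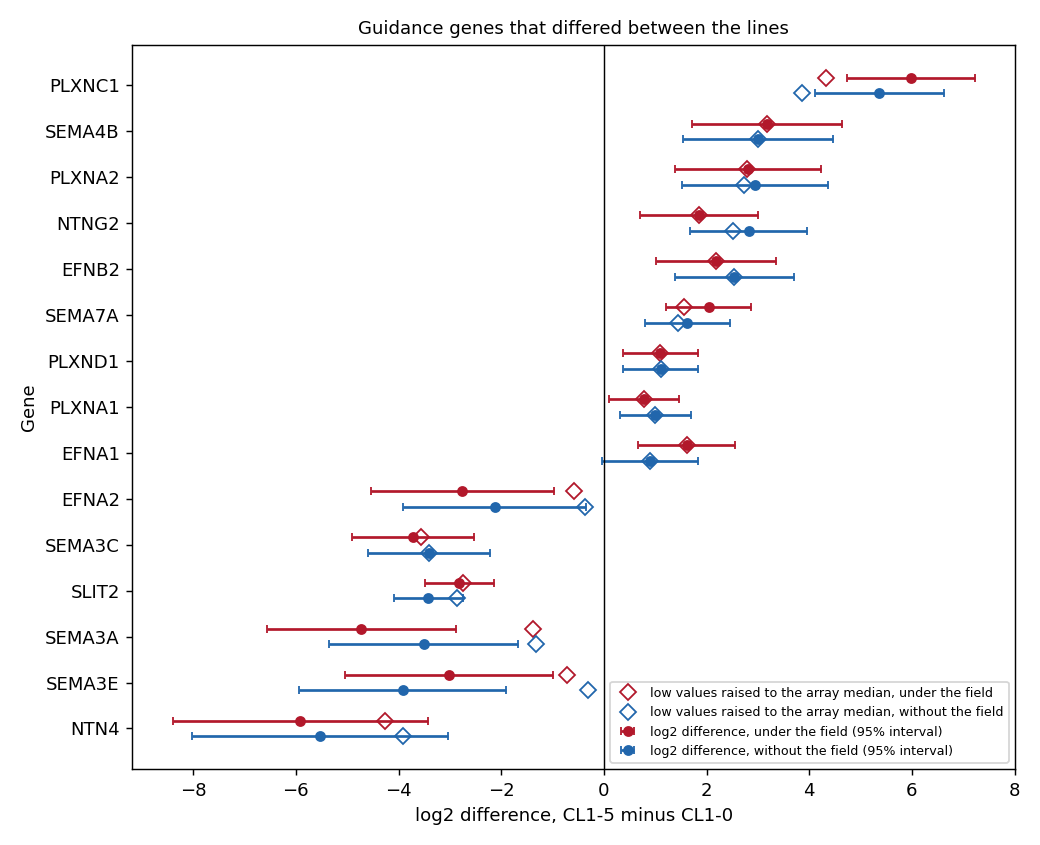
Log2 difference between CL1-5 and CL1-0 under the field (red) and without it (blue) for the 15 members past the threshold in either state. Filled points are the differences with 95% intervals of the fit, and open diamonds are the differences after values under the array median were raised to it. For SEMA3E and EFNA2 the diamonds lie between -0.72 and -0.31, while for SEMA4B and EFNB2 they coincide with the points.

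Turning to the secreted ligands, netrin-4 showed the widest gap of the members that were lower. It is a laminin-related netrin of basement membranes that acts partly by binding laminin. NTN4 had signals of 5.72, 1.91 and 5.58 in CL1-5 under the field and 5.17, 6.0 and 2.14 without it, against 9.13, 10.73 and 11.07 and 8.70, 10.44 and 10.77 in CL1-0. None of the 6 CL1-5 arrays exceeded its array median, and all 6 CL1-0 arrays were high. NTN4 was lower by at least 19.3-fold under the field (log2 difference -5.91 ± 1.14, adjusted p = 0.00340, limma) and by at least 15.0-fold without it (-5.53 ± 1.14, adjusted p = 0.00526). On the arrays with the poly-A control the differences were -7.16 and -6.54.

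SLIT2 is the robo ligand most often reported as silenced in carcinomas. It had signals of 6.09, 5.80 and 6.40 in CL1-5 under the field and 5.58, 5.86 and 5.07 without it, against 8.99, 8.89 and 8.86 and 9.28, 8.54 and 8.96 in CL1-0. The replicates of each group lay within 1 log2 unit of each other, and the lines were well apart. SLIT2 was lower by at least 6.66-fold under the field (log2 difference -2.82 ± 0.31, adjusted p = 6.61e-05, limma) and by at least 7.26-fold without it (-3.42 ± 0.31, adjusted p = 1.54e-05). Its other 2 probe sets differed by -2.28 and -2.91 without the field. SLIT1 and SLIT3 differed by -0.34 ± 0.47 and -1.19 ± 0.96 without the field and did not pass.

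SEMA3C, a class 3 semaphorin that signals through neuropilins with class A plexins or plexin D1, had signals of 6.69, 5.46 and 7.38 in CL1-5 under the field and 7.22, 6.66 and 6.25 without it, against 9.42, 10.59 and 10.68 and 9.25, 10.24 and 10.83 in CL1-0. Within CL1-5 most arrays stayed above the array median, so the transcript gave signal there too. SEMA3C was lower by at least 11.8-fold under the field (log2 difference -3.72 ± 0.54, adjusted p = 0.000534, limma) and by 10.5-fold without it (-3.40 ± 0.54, adjusted p = 0.00100). Its second probe set differed by -1.92 without the field, and on the arrays with the poly-A control the differences were -4.21 and -4.08.

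SEMA3A, the classical repellent that binds neuropilin-1, had signals of 1.30, 3.32 and 3.45 in CL1-5 under the field and 2.86, 3.09 and 5.64 without it, against 7.98, 6.94 and 7.32 and 8.09, 6.64 and 7.40 in CL1-0. All CL1-5 values were under the array median, where the log2 scale spreads small differences, and all CL1-0 values were above it. The differences were -4.72 ± 0.84 under the field (adjusted p = 0.00208, limma) and -3.51 ± 0.84 without it (adjusted p = 0.0123), with bounds of at least 2.59-fold and at least 2.49-fold lower. Without CL1-0 no-field replicate 1 the call without the field was lost (adjusted p = 0.0527). On the arrays with the poly-A control the differences were -3.74 and -2.65 (adjusted p = 0.00703 and 0.0372). Its other 2 probe sets differed by -2.86 and -4.40 without the field.

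SEMA3E, the ligand of plexin D1, rests on low values. It had signals of 2.72, 4.52 and 4.00 in CL1-5 under the field and 1.81, 4.25 and 0.88 without it, against 7.41, 6.05 and 6.83 and 7.19, 5.65 and 5.85 in CL1-0. The differences were -3.02 ± 0.93 (adjusted p = 0.0394, limma) and -3.92 ± 0.93 (adjusted p = 0.0114), with bounds of only 1.65-fold and 1.24-fold. Neither call held once values under the array median were set to it (adjusted p = 0.194 and 0.645), nor on the arrays with the poly-A control alone (adjusted p = 0.187 and 0.0625). With only the groups compared the call without the field was lost (adjusted p = 0.0532). The call without the field was also lost without CL1-0 no-field replicate 1 (adjusted p = 0.0536). The call under the field was lost without any of CL1-0 no-field replicates 2 or 3, CL1-0 field replicates 1 to 3 or CL1-5 field replicates 1 or 3 (adjusted p = 0.0539 to 0.128). SEMA3F, a ligand of neuropilin-2, differed by 0.47 ± 0.30 and 0.32 ± 0.30, and SEMA3G, a vascular class 3 semaphorin, by -1.12 ± 0.81 and 1.01 ± 0.81 under the field and without it, and neither passed.

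**Figure D4:**
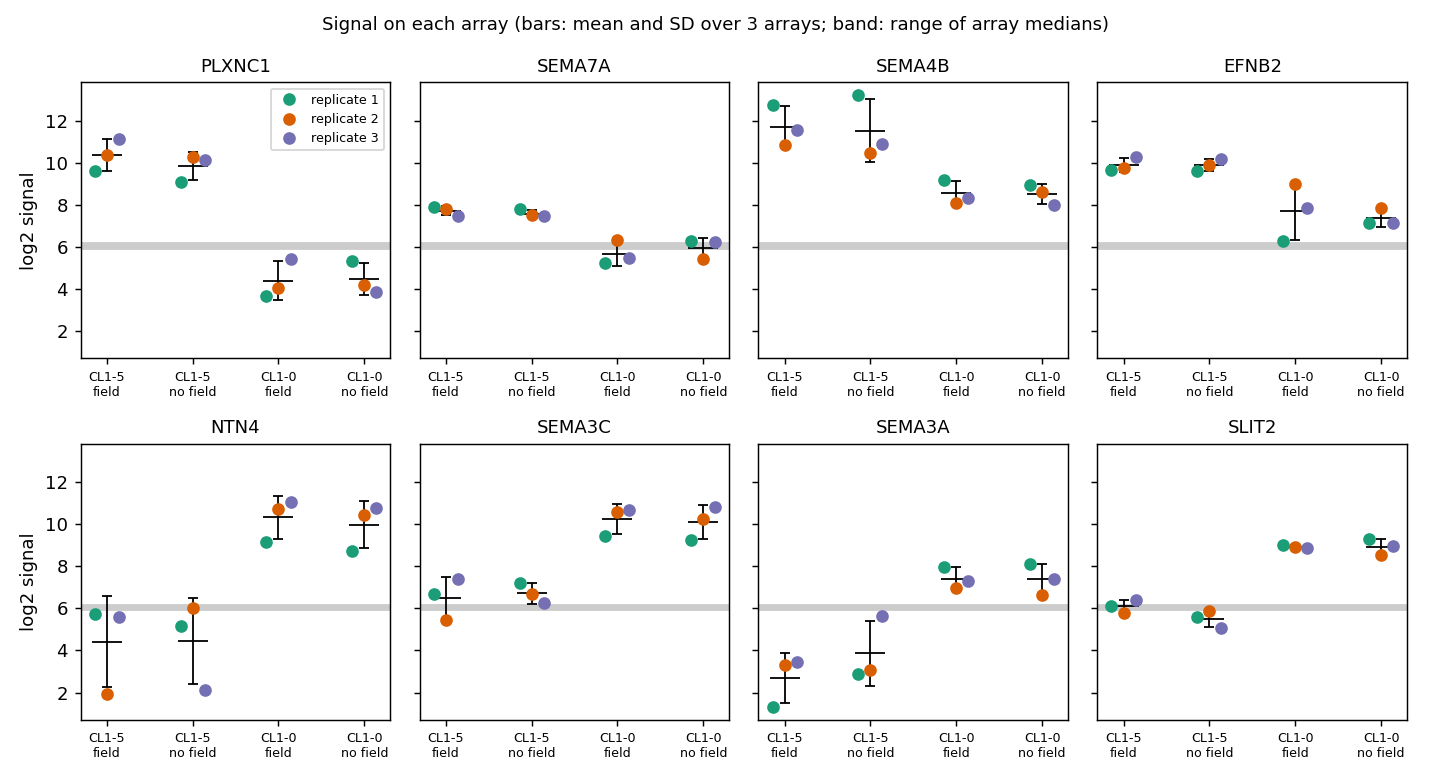
Log2 signal on each array for 4 members higher in CL1-5 (top) and 4 lower in CL1-5 (bottom), with points for replicates 1 to 3, black bars for the mean and SD of 3 arrays, and a grey band for the range of the array medians, 5.92 to 6.18. PLXNC1 is under the band on all 6 CL1-0 arrays, and NTN4 and SEMA3A are at or under it on all 6 CL1-5 arrays.

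The promoters of the 2 members with the largest bounded difference in each direction are shown, because these genes differed in opposite directions between lines of one origin, so that a reader can set their upstream sequences side by side. Each is the 250 bases before the 5′ end of the RefSeq gene, on the gene's own strand, in build GRCh38.p14. The window of PLXNC1 is chr12:94148327-94148576 on the plus strand, that of SEMA4B is chr15:90184670-90184919 on the plus strand, that of NTN4 is chr12:95791156-95791405 on the minus strand and that of SEMA3C is chr7:80922390-80922639 on the minus strand. Capitals mark the GC box GGGCGG, the core of Sp1-type sites, on either strand. Neighbouring matches that overlap form 1 longer run.
PLXNC1: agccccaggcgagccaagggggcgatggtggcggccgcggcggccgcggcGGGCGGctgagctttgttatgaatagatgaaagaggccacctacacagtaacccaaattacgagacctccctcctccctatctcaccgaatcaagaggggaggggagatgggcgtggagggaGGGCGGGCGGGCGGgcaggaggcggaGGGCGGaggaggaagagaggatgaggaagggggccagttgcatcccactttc
SEMA4B: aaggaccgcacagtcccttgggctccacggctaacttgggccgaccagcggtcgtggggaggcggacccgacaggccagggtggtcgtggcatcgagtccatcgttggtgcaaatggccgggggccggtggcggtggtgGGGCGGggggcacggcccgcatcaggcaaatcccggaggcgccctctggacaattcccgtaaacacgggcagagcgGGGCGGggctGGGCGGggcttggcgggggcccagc
NTN4: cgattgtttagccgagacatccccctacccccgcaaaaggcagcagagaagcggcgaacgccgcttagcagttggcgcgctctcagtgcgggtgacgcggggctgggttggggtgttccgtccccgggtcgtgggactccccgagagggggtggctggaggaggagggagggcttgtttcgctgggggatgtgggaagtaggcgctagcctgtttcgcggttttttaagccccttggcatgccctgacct
SEMA3C: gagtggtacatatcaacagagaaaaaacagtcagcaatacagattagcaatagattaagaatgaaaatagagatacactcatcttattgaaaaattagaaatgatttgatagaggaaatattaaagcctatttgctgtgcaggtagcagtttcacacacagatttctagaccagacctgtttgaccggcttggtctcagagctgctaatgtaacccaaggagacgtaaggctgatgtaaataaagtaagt
PLXNC1 holds 5 matches and SEMA4B 3, while NTN4 and SEMA3C hold none. The window of SEMA3C has 2 CG dinucleotides and 36.4% G or C, whereas NTN4 has 20 and 64.4%, PLXNC1 18 and 65.2% and SEMA4B 24 and 72.0%. The GC box occurred in 42.2% of 27302 promoters of this length and in 46 of the 65 members with a promoter in the table, or 70.8%. Of the members that passed without the field, the table held 7 that were higher, and 7 had the motif (EFNB2, PLXNA1, PLXNA2, PLXNC1, PLXND1, SEMA4B and SEMA7A). It held 4 that were lower, and 1, SLIT2, had it. Both strands were also searched for the E-box CAGGTG bound by Snail-type repressors and the AP-1 site TGANTCA, and neither occurs in the 4 windows shown. CAGGTG occurred in 17.5% of all promoters and in 10 of the 65 members, and TGANTCA in 6.57% and in 2 of 65. These matches describe letters in the windows and were not tested against expression.

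None of the tested Eph receptors, neuropilins, robos or netrin receptors passed in the fit without the block, although several had sizeable differences. EPHA2, the receptor of ephrin-A1 and a frequent marker of carcinoma cells, had signals of 10.22, 9.47 and 9.42 in CL1-5 under the field and 10.70, 10.09 and 10.03 without it, against 10.64, 10.23 and 9.83 and 10.59, 9.81 and 10.42 in CL1-0. It differed by -0.53 ± 0.32 under the field (adjusted p = 0.292, and 0.0345 with the replicate block, limma) and by -0.00397 ± 0.32 without it. EPHB4, the receptor of ephrin-B2, had signals of 10.08, 8.96 and 9.42 in CL1-5 under the field and 10.24, 8.95 and 8.85 without it, against 10.80, 10.46 and 10.28 and 10.50, 10.10 and 10.23 in CL1-0. It was 2.04-fold and 1.91-fold lower under the field and without it, and both differences passed only with the block (adjusted p = 0.00286 and 0.00570) or on the arrays with the poly-A control (adjusted p = 0.00154 and 0.00107). EFNB2 thus stood higher in CL1-5 while the values of its receptor EPHB4 stood lower. EPHB1, another ephrin-B receptor, was higher with the block in both states (log2 differences 1.79 and 1.43, adjusted p = 0.00684 and 0.0236). ROBO1, the main receptor of SLIT2, had differences of -0.77 ± 0.25 and -0.63 ± 0.25 and passed with the block (adjusted p = 0.00249 and 0.00868). EPHA8, EPHA10, EPHB3 and EPHB6 did not pass in either state with or without the block.

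NRP1, the co-receptor of SEMA3A, had signals of 9.25, 8.80 and 9.61 in CL1-5 under the field and 10.39, 9.61 and 8.93 without it, against 5.82, 9.13 and 8.78 and 5.37, 8.09 and 8.13 in CL1-0. Both CL1-0 replicate 1 arrays were under the array median, unlike the other 4. The difference was 1.31 ± 0.88 under the field (adjusted p = 0.347, limma) and 2.45 ± 0.88 without it (adjusted p = 0.0763, and 0.0228 with the block). Without the replicate 1 arrays it was 0.24 and 1.16 (adjusted p = 0.598 and 0.0170). With the block, EFNA5 was higher and EFNB3 lower in CL1-5 without the field (log2 differences 0.57 and -2.22, adjusted p = 0.0258 and 0.0158). EFNB3 also passed under the field once values under the array median were set to it (-1.24, adjusted p = 0.00953). The other EFNB3 probe set, above the array median on 6 arrays, differed by 0.26 without the field, and the mean of both gave -0.98 (adjusted p = 0.327, limma).

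The calls of 2 further receptors depended on which probe set stood for the gene. The probe set kept for NRP2, the co-receptor of SEMA3F and VEGFC, differed by 0.59 ± 0.43 under the field and 0.52 ± 0.43 without it, and did not pass. The mean of its 11 probe sets differed by 1.51 ± 0.44 (adjusted p = 0.0384, limma) and 1.98 ± 0.44 (adjusted p = 0.00981), and the single probe sets ranged from -0.77 to 3.82 without the field. ROBO4, the robo of blood vessel endothelium, differed by 0.78 ± 0.66 and 0.64 ± 0.66 on the kept probe set and did not pass. Its other probe set, above the array median on 7 arrays, differed by 5.51 and 3.79, and the mean of both passed in both states (3.14 ± 0.57, adjusted p = 0.00267, and 2.21 ± 0.57, adjusted p = 0.0215, limma). The endothelial markers TIE1 and ESAM were above the array median on the CL1-5 arrays alone, as given above, and their part in the ROBO4 values was not tested. ROBO3, NTN1 and UNC5B, the 1 tested netrin receptor, passed neither on the kept probe set nor on the mean.

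The field was then compared with no field within each line. After 2 h, 0 of 49 members passed in CL1-5 and 0 in CL1-0, beside 0.0% of all 13838 genes in both (limma), and 0 passed with the replicate block or on the arrays with the poly-A control. The average over the lines and the difference of the response between the lines also gave 0 of 49, beside 0.0% of all genes. At an unadjusted p under 0.05, there were 2 members in CL1-5 beside 1.83% of all genes, 0 in CL1-0 beside 0.961%, 2 for the average beside 0.983%, and 1 for the difference of the response beside 1.06%. With the block these counts were 3, 0, 3 and 1, beside 7.1%, 2.3%, 3.13% and 4.58% of all genes. The median change of the 49 members was -0.03 in CL1-5, beside -0.01 for all genes, and 0.14 in CL1-0, beside 0.01. In CL1-5 the median was 0.154 without field replicate 2 and 0.180 without no-field replicate 1, and it was -0.162 to -0.146 without any other CL1-5 array. In CL1-0 it ran from 0.044 without CL1-0 field replicate 1 to 0.167 without CL1-0 no-field replicate 1. Intervals of the field change are given below for EFNA1 and EFNB3 alone, which were picked for small p. They do not show how large a change could have been missed in the other members.

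EFNA1 had the smallest p. Field minus no field in replicate pairs 1, 2 and 3 was 1.2, 0.20 and 2.5 for CL1-5 pairs and 0.33, 0.45 and 0.99 for CL1-0 pairs. The change was 1.30 in CL1-5 (95% interval 0.36 to 2.25, unadjusted p = 0.0110, adjusted p = 1.0, limma) and 0.59 in CL1-0 (interval -0.36 to 1.53). Averaged over the lines it was 0.94 (interval 0.28 to 1.61, unadjusted p = 0.00949, adjusted p = 1.0). The 3 CL1-0 field arrays lay above the 3 without field, while the CL1-5 groups overlapped. EFNB3, a transmembrane ephrin, changed by 2.04, 0.09 and 3.42 in the CL1-5 pairs and by 1.62, 0.18 and 1.02 in the CL1-0 pairs. Its change in CL1-5 was 1.85 (interval 0.30 to 3.40, unadjusted p = 0.0234, limma), but 2 of 3 arrays without field were far under the array median, and the change was 0.23 once these were set to that median. In all 6 pairs, 4 of 49 members were higher under the field (EFNA1, EFNB3, PLXNA2 and SEMA3E), beside 2.02% of all genes, and 1 was lower (ROBO4), beside 1.52%. In CL1-0, 14 members were higher in all 3 pairs, beside 15.0% of all genes, and 3 were lower, beside 12.8%. The corresponding counts in CL1-5 were 8, beside 14.2%, and 7, beside 15.0%. The 3 field arrays did not overlap the 3 without field for 2 members in CL1-5, beside 5.68% of all genes, and for 2 in CL1-0, beside 3.46%.

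Other members with small p in CL1-5 were SEMA3G, with a change of -1.71 ± 0.81, UNC5B with -0.61 ± 0.29, EPHA8 with -2.12 ± 1.07 and SLIT2 with 0.59 ± 0.31, with unadjusted p of 0.0576, 0.0577, 0.0709 and 0.0789. UNC5B signals were 6.85, 6.78 and 6.81 under the field, against 7.80, 7.50 and 6.98 without it, so the groups did not overlap, but the mean of its 3 probe sets changed by 0.18. In CL1-0 the smallest p was that of SEMA6B, a transmembrane semaphorin that binds class A plexins, with a change of 0.66 ± 0.36 (unadjusted p = 0.0946). SEMA4A changed by 1.52 ± 0.97, PLXNA1 by 0.38 ± 0.31 and NTNG2 by 0.59 ± 0.52 in CL1-0. For the average, EPHA8 gave -1.46 ± 0.76, SEMA3E 0.99 ± 0.65, ROBO4 -0.65 ± 0.46 and EPHA2 -0.30 ± 0.23. The difference of the response between the lines was -1.14 ± 0.51 for SEMA6B (unadjusted p = 0.0449, adjusted p = 1.0, limma), which changed by -1.2, -0.12 and -0.14 in the CL1-5 pairs and by 0.31, 0.36 and 1.30 in the CL1-0 pairs. It was -0.80 ± 0.41 for UNC5B, -2.13 ± 1.15 for SEMA3G and -2.50 ± 1.37 for SEMA4A. Many of these values rest on low signals: SEMA3G, EPHA8, SEMA4A and SEMA3E were above the array median on 4, 7, 5 and 4 arrays. Over the alternatives run, the CL1-5 change shrank to -0.25 for SEMA3G and -0.48 for EPHA8. The CL1-0 change of SEMA4A shrank to 0.42, and the averages of EPHA8 and SEMA3E to -0.19 and 0.19. The difference of the response shrank to -0.38 for SEMA3G and -0.23 for SEMA4A. For PLXNA1, EFNA1 and EFNA2, whose line differences passed in 1 state only, the response did not differ past the threshold either (adjusted p = 1.0 each, limma).

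**Figure D5:**
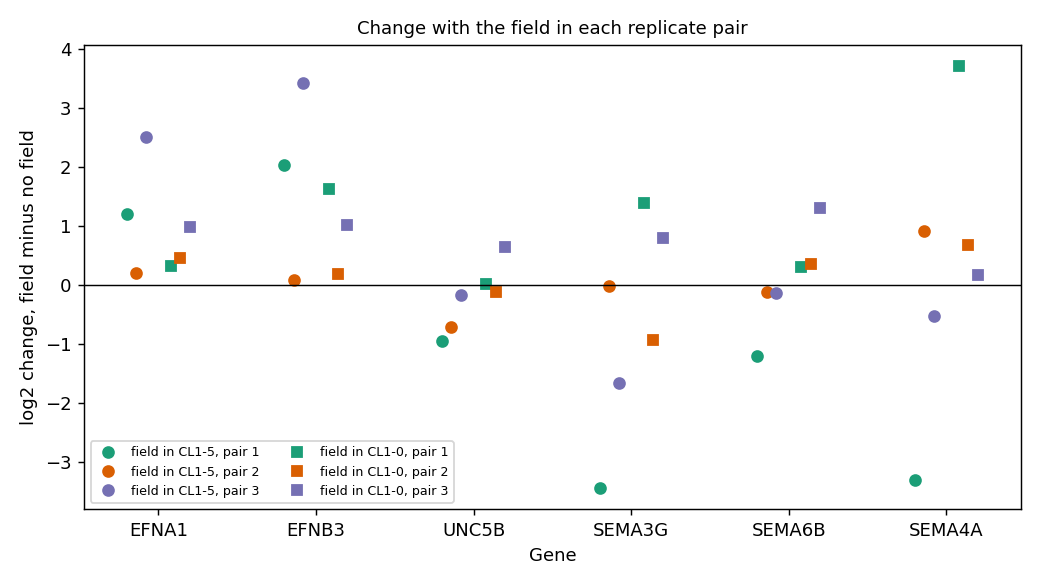
Log2 change with the field in each replicate pair, CL1-5 (circles) and CL1-0 (squares), for 6 of the members with the smallest p in a field comparison. EFNA1 and EFNB3 are above 0 in all 6 pairs, and SEMA6B is under 0 in the 3 CL1-5 pairs and above it in the 3 CL1-0 pairs. None passed an adjusted p of 0.05.

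Of the adaptors, exchange factors, cytoskeletal regulators and co-receptors through which guidance receptors act, 57 were on the array and 53 were tested. Without the field 14 of 53 passed, 8 higher and 6 lower in CL1-5, or 26.4%, and under the field 16 passed, 8 higher and 8 lower, or 30.2%, beside 18.0% and 19.4% of all genes. With the replicate block 27 and 28 passed, beside 35.6% and 38.1% of all genes, and on the arrays with the poly-A control 22 and 26 passed, beside 30.9% and 31.9%. MYO10, a filopodial motor that carries netrin receptors, was at least 58.7-fold higher without the field (log2 difference 6.02 ± 0.39, adjusted p = 1.46e-06, limma). MICAL2, a relative of the plexin-bound actin oxidase MICAL1, was 15.4-fold higher (3.95 ± 0.27, adjusted p = 2.34e-06). The kinase FES, which acts below plexin A1, and FLT1, a receptor of VEGF ligands, differed by 3.19 ± 0.82 and 2.54 ± 0.78 (adjusted p = 0.0175 and 0.0405). Both rest on low CL1-0 signals: without the field, FES was above the array median on 1 of 3 CL1-0 arrays and FLT1 on 0 of 3. Over the alternatives run, these differences fell to 1.84 for FES and 1.27 for FLT1. The call of FES was lost without any of CL1-0 no-field replicates 2 or 3 or CL1-5 no-field replicates 2 or 3 (adjusted p = 0.0564 to 0.0736). That of FLT1 was lost without any of CL1-0 no-field replicate 1, where the difference was 1.48, CL1-5 no-field replicates 1 to 3 or CL1-5 field replicates 2 or 3 (adjusted p = 0.0536 to 0.127), and on the arrays with the poly-A control, where the difference was 1.63 (adjusted p = 0.0521). It was lost as well with quantile normalization (0.0546), array median centring (0.0537), no filter (0.0541) and only the groups compared (0.0955). Lower in CL1-5 were RND3, with a difference of -4.0 ± 0.24 (adjusted p = 8.26e-07), and CRMP1, a mediator of SEMA3A signalling, 14.9-fold lower (-3.90 ± 0.34, adjusted p = 1.13e-05). ENAH, an actin regulator that acts below robos, differed by -2.96 ± 0.18, and VEGFC, a ligand of neuropilin-2, by -2.89 ± 0.31 (adjusted p = 8.63e-07 and 5.43e-05). The field changed 0 of 53 in either line (limma, smallest adjusted p 1.0). The smallest unadjusted p values were those of MAGED1, found to bind the rat UNC5A protein, with 0.46 ± 0.17, and DPYSL4, a relative of CRMP1, with 0.73 ± 0.33 in CL1-5, and of MYO10 with 0.98 ± 0.39 and RGMA, a neogenin ligand, with 1.16 ± 0.58 in CL1-0. For the average over the lines they were DPYSL4 with 0.58 ± 0.23 and VASP, a relative of ENAH, with -0.29 ± 0.16.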

How the data were processed

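RNA of 12 cultures was hybridised to 12 Affymetrix arrays, 3 in each of 4 groups. The authors deposited a linear intensity (signal) for each of 54675 probe sets, computed with MAS5 per the submitters' processing notes. The MAS5 version is not given in the sources used here, and no detection calls were used. On every array the mean after trimming 2% at each end lay between 500.07 and 500.08. Symbols came from the platform annotation: 41097 probe sets had 1 symbol, 1801 several and 11777 none, and all 76 member symbols matched RefSeq by gene ID. From the deposited intensities, log2 values were taken (3691 values under 1 set to 1), 1 probe set was kept per gene, and 13838 genes above the array median on at least 3 arrays were fitted with limma 3.58.1 in R 4.3.3 (4 group means, empirical Bayes with trend). Benjamini-Hochberg adjustment ran over all of these genes, with a threshold of 0.05. Precision is limited by the number of arrays. The fitting step was tested on simulated data.

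The labels give biological replicates. Deviations from group means correlated at 0.188 to 0.615 between arrays of the same number in every compared pair of groups. The replicate number was therefore entered as a block in a separate fit. Replicate 1 of one group correlated with replicates 2 and 3 of the other at -0.511 to -0.277. The deviations of a gene sum to 0 within a group. With replicate 1 apart in all 4 groups, these negative values, and positive ones between replicates 2 and 3, are therefore partly built in. Replicate 2 against replicate 3 gave 0.178 to 0.289, and replicates 2 and 3 against their own number gave 0.188 to 0.427. These 2 ranges overlap, so the numbers 2 and 3 are not clearly a pairing. CL1-5 field replicate 3 correlated more with no-field replicate 2 (0.236) than with no-field replicate 3 (0.188). Without the field, CL1-5 replicate 3 correlated more with CL1-0 replicate 2 (0.235) than with CL1-0 replicate 3 (0.189). The arrays without the poly-A control carried number 1 in every group. Named genes were those past the threshold with groups that do not overlap (up to 10 a direction), the 6 with the smallest p in each field comparison, the 4 with the smallest p in the difference of the response, the member of each family with the highest mean, and the leading genes of the pathway list. Members and lists were chosen with earlier results of these data known. Alternatives were other scalings, a pseudocount of 5.05, filters, mean of probe sets, blocks, only the groups compared, only the arrays with the poly-A control, and leaving out each array. Promoter sequences are from RefSeq, build GRCh38.p14. Where that table gives several starts for a gene, the one nearest the gene's 5′ end was used.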

Additional observations from a re-analysis of the deposited data

How the results depend on the processing

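Of the 27 member calls between the lines, 15 passed under every alternative in which the gene was fitted and without each array. These were both calls of PLXNC1, PLXNA2, SEMA4B, NTN4, SLIT2 and SEMA3C, those of EFNB2 and NTNG2 without the field, and that of SEMA3A under it. The stricter filter removed SEMA3A, so its call was kept in 24 settings, against 25 for the others. Members passing without the field numbered 11 to 22 over the alternatives, the highest with the replicate block and no filter (chosen after seeing the data), and 9 to 15 when arrays were left out. Under the field they numbered 12 to 20, and 8 to 16 when arrays were left out. Passing pathway genes without the field numbered 27 with the replicate block, 26 with the poly-A control as a block, 22 on the arrays with it and 26 with the block and no filter. Under the field they numbered 28, 28, 26 and 27 in the same settings. The median difference of the members without the field ran from -0.292 to 0.165 when arrays were left out. Under the field it was 0.17 with a stricter filter and -0.17 with the mean of probe sets. For the field in CL1-0 it was 0.0834 with array median centring, 0.0754 with the mean of probe sets and 0.044 to 0.167 when arrays were left out, and for the difference of the response -0.27 to 0.17. With the mean of probe sets, the field change in CL1-5 reversed for UNC5B (0.18), SLIT2 (-0.69) and DPYSL4 (-0.0763), that in CL1-0 for PLXNA1 (-0.00598), and the difference of the response for UNC5B (0.48). On the arrays with the poly-A control the change of NTNG2 in CL1-0 reversed (-0.0897). The cause of these shifts was not tested. Every count of members passing in a field comparison was 0 under the alternatives run. The replicate block changed no calls other than those given above. Signal near or under the array median limits SEMA3E, EFNA2 and SEMA3A, and the field changes of EFNB3, SEMA3G, EPHA8 and SEMA4A.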

Other observations

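A probe set annotated to both SEMA3B and the microRNA MIR6872 entered no comparison because it has 2 symbols. It was above the array median on 3 arrays and averaged 4.30 ± 1.61 and 4.07 ± 1.85 (log2, SD, n = 3) in CL1-5 under the field and without it, and 6.12 ± 0.70 and 6.04 ± 1.06 in CL1-0. The probe set of SEMA3B alone was under the array median on all 12 arrays.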
